A study of Homo sapiens with 28 samples.

Results

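NRF2 and glutathione defence genes are described here as 10 genes: the transcription factor NFE2L2 (NRF2) and its inhibitor KEAP1, the glutathione synthesis genes GCLC and GCLM, the quinone and haem enzymes NQO1 and HMOX1, the thioredoxin system genes TXNRD1 and SRXN1, and the glutathione peroxidases GPX2 and GPX3. They were chosen by name and with earlier results of these data known, as 10 of the 19775 genes that the arrays measured with a probe set of their own. Their counts beside those of all genes are therefore a description. Of 41091 probe sets that carry 1 gene symbol, 21 belong to these genes and 17 passed the filter on low signals. Each gene is given by its brightest probe set, and KEAP1, HMOX1 and SRXN1 have no other.

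NRF2 is a transcription factor that is made and destroyed continuously. KEAP1 holds it in the cytoplasm and presents it to a CUL3 ubiquitin ligase. Oxidants and reactive chemicals modify KEAP1, so that NRF2 builds up, enters the nucleus, pairs with small MAF proteins and binds antioxidant response elements of its target genes. These targets make glutathione, reduce quinones and peroxides, break down haem and export conjugates. In kidney cancer the pathway is known to be altered in a part of the tumours by changes of NFE2L2, KEAP1 or CUL3.

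The samples were 28 subcutaneous xenograft tumours of 786-O and A498, human clear cell renal carcinoma lines that both lack a working VHL tumour suppressor, in female athymic nude/beige mice injected at 6 to 8 weeks of age. Mice received by gavage, on 6 of 7 days each week once a tumour measured 12 mm across, either sorafenib (80 mg/kg), a blocker of RAF kinases and of the receptors for VEGF and PDGF, or sunitinib (53.6 mg/kg), which blocks the same receptors. The series asks which expression changes go with resistance to VEGF receptor inhibitors. There were 5 sorafenib-resistant and 5 untreated 786-O tumours in one arm, 4 sunitinib-resistant and 5 untreated 786-O tumours in another, and 5 sorafenib-resistant and 4 untreated A498 tumours. Excision was at 12 mm, ahead of any drug, or at a 20 mm limit, and the size of the single tumours is not in the labels. Whether every tumour had a separate mouse is not stated either, and p-values describe only how these samples spread. Between resistant and untreated tumours, drug, resistance, tumour size and time of growth cannot be told apart. Athymic mice lack T cells but keep macrophages, vessels and fibroblasts, and host RNA can bind to some of the human probes.

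Total RNA was hybridised to 1-colour Affymetrix HG-U133 Plus 2.0 arrays, and the authors deposited linear signals, with array medians from 79.7 to 99.4. The signals of different genes come from different probes and are not compared with each other. Differences are of log2(signal + 16), which understates changes of dim genes, and calling a gene required a limma p under 0.05 after Benjamini-Hochberg adjustment over 13808 genes. Of 14 renal carcinoma and tubule genes listed 12 had a probe set, CA9 and NDUFA4L2 being without one. PAX8, a kidney transcription factor, had group means from 2327 to 4730, and VIM, KRT8, KRT18, CD70, CDH6 and MME were bright. The tubule gene LRP2 averaged only 39.5 to 295, EPCAM 35.3 to 119, PAX2 118 to 497 and CUBN 183 to 354. Group means of SLC17A3 ran from 139 to 9239. Of 16 macrophage markers 15 had a probe set and 6 passed the filter. The defining markers CD14 and CD163 averaged at most 15.5 and 29.7, below the filter limit of 89.4. The 3-prime minus 5-prime log2 differences of GAPDH averaged -0.09 to 0.01 over the groups, and those of ACTB 0.13 to 0.45, with the highest single value, 1.03, in an untreated 786-O tumour of the sorafenib arm.

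Because NRF2 acts through a short DNA element, the letters TGACNNNGC, the core of the antioxidant response element, were searched on both strands in the 250 bases before each RefSeq gene start of GRCh38.p14. The core shares its first letters with the AP-1 site TGACTCA, and none of the matches below contains that site. It was found in 3830 of 35116 promoter windows of this length, or 10.9%, and for 13.2% of genes. Of the 9 genes of the group that have a promoter window in the RefSeq table, 4 held the core and 5 (NQO1, GCLC, SRXN1, GPX3 and NFE2L2) did not hold these letters in this window. HMOX1 is named only. The stretches are printed in the direction of the gene, with the match in capitals, because they show where the element lies in the genes described below: 34 to 26 bases before the GCLM start, 99 to 91 and 102 to 94 bases before the 2 TXNRD1 starts, 122 to 114 bases before the GPX2 start and 31 to 23 bases before one KEAP1 start. A match is a description of the letters and not a shown binding site.
GCLM, chr1:93909431-93909490, minus strand: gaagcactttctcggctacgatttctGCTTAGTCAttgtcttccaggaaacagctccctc
TXNRD1, chr12:104215654-104215714, plus strand: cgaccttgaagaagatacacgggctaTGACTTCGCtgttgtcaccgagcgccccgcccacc
TXNRD1, chr12:104286904-104286964, plus strand: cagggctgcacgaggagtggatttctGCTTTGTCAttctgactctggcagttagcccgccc
GPX2, chr14:64942833-64942893, minus strand: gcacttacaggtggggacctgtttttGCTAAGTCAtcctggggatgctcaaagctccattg
KEAP1, chr19:10502772-10502828, minus strand: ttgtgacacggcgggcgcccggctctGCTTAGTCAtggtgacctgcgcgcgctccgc
The KEAP1 window holds a second match, in lower case near the left end of the printed stretch, at 54 to 46 bases before the start. The GCLM and KEAP1 matches have the same 9 letters, TGACTAAGC on the other strand. In these 4 genes with a match, GCLM was the only one called in any comparison of resistant with untreated tumours. Among the 5 without a match, NQO1 and GCLC were called. Elements further than 250 bases from a start were not searched.

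In sorafenib-resistant 786-O tumours, 4 of the 10 genes were lower than in untreated ones and 0 were higher: NQO1, HMOX1, GCLM and GCLC. Over all genes tested 15.2% were called in this comparison, 5.97% higher and 9.18% lower. The median difference of the 10 genes was -0.35, against -0.05 over all genes. In sunitinib-resistant 786-O tumours 1 of the 10 genes, GCLC, was called lower and 0 higher, with 5.06% of all genes called (2.22% higher, 2.84% lower) and medians of -0.14 and -0.01. In sorafenib-resistant A498 tumours 0 of 10 were called by limma, and 6.34% of all genes were called (2.93% higher, 3.4% lower), with medians of -0.04 and 0.03. An unadjusted limma p under 0.05 was found there for 1 of the 10 genes and for 2893 of all 13808. None of the 10 genes was called in all 3 arms in one direction, where 35 of 13808 genes were lower and 21 higher in all 3.

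In untreated A498 tumours 8 of the 10 genes were higher and 0 lower than in untreated 786-O tumours of the sunitinib arm. All 10 differences were positive, and the median was 1.57 against -0.06 over all genes. In this comparison 58% of all genes were called (27.3% higher, 30.6% lower). GPX2 and GPX3 lay above the filter limit on 13 and 16 of the 28 arrays, the 9 A498 arrays among them in both cases. Of the 8 other genes, which lay above the limit on all 28 arrays, 6 were called. The sunitinib arm was used because its titles share a leading number with those of A498, whereas the 786-O sorafenib arm has another, and that number and the arm cannot be told apart. This comparison uses the same untreated tumours as the sunitinib and the A498 comparisons.

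**Figure D1:**
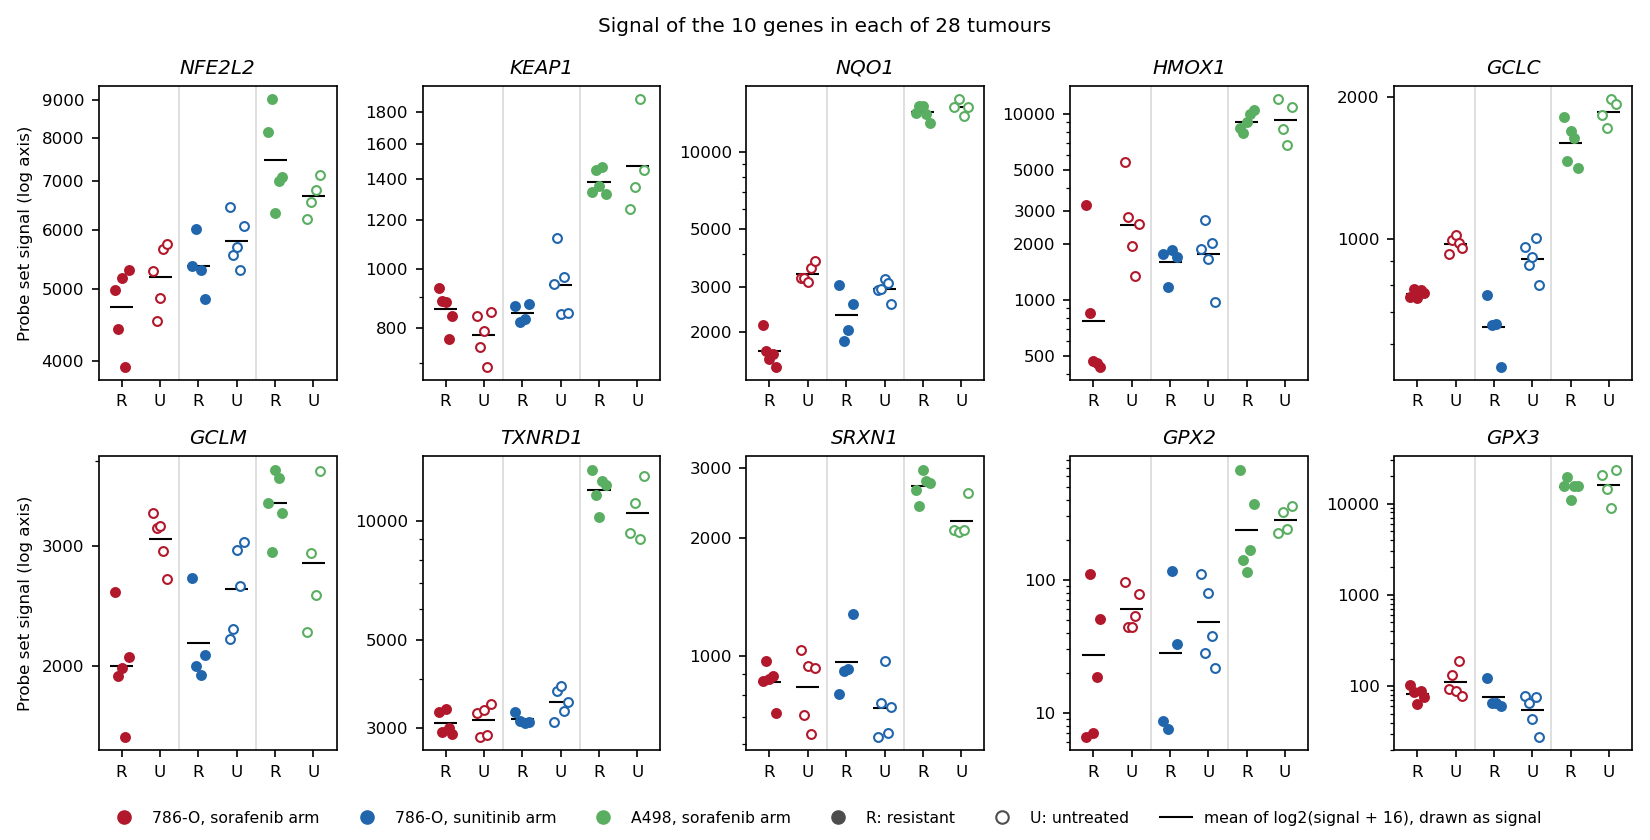
Signal of the brightest probe set of each of the 10 genes (vertical log axis, a separate range in each panel) in 28 tumours, with resistant (R, filled) left of untreated (U, open) in each arm; bars are means of log2(signal + 16) drawn as signal. NQO1 lies at 1468 to 2123 in sorafenib-resistant 786-O tumours and at 3120.3 to 3756 in untreated ones, and for 7 of the genes every A498 tumour lies above every 786-O tumour, the exceptions being NFE2L2, GCLM and GPX2.

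**Figure D2:**
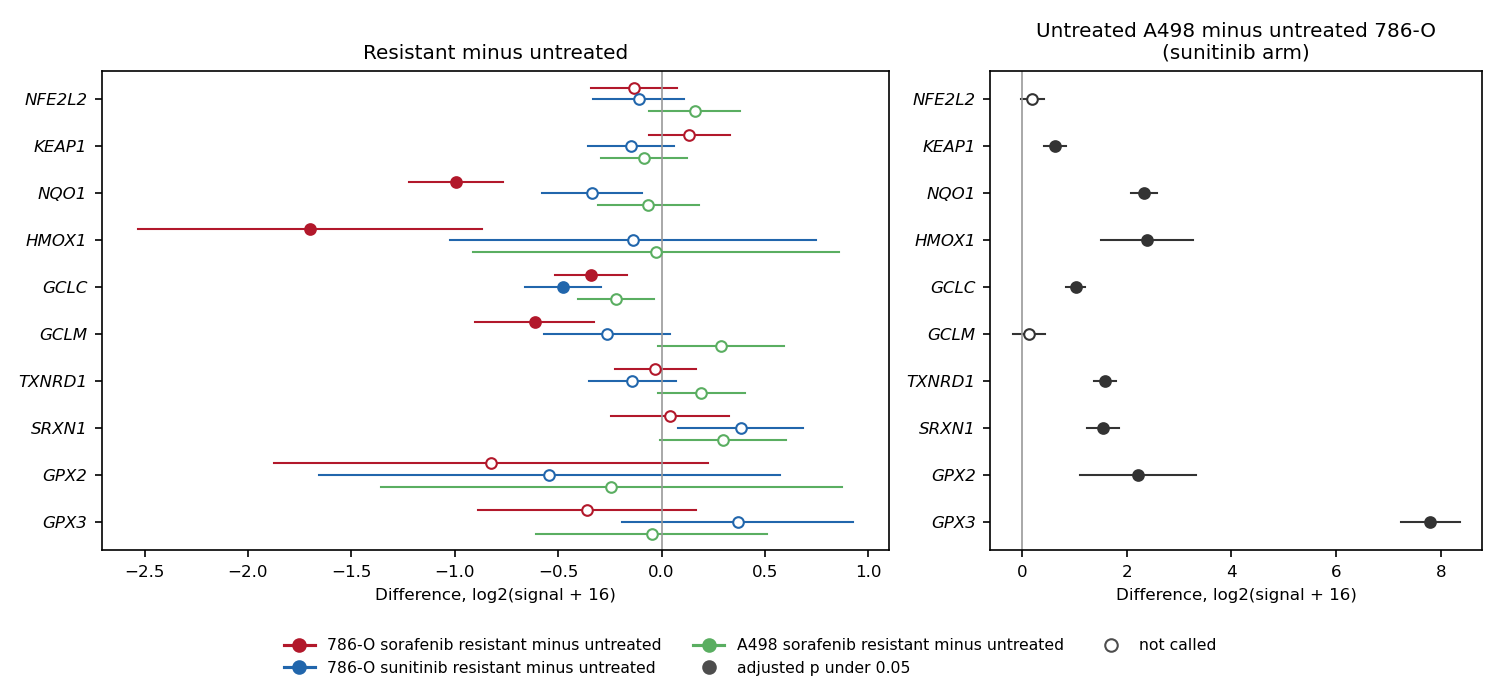
Differences on the log2(signal + 16) scale (horizontal axis) with 95% intervals from limma for the 10 genes: resistant minus untreated in 3 arms on the left, untreated A498 minus untreated 786-O on the right, filled where the adjusted p was under 0.05. The filled points on the left are NQO1, HMOX1, GCLC and GCLM for sorafenib in 786-O and GCLC for sunitinib, all below 0.

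The regulators NFE2L2 and KEAP1 did not pass the test in any arm. NFE2L2, the transcription factor itself, had signals of 3931 to 5298 in sorafenib-resistant and 4527 to 5747 in untreated 786-O tumours, a difference of -0.13 ± 0.10 (standard error). In the sunitinib arm it lay at 4854 to 6026 in resistant and 5302 to 6448 in untreated tumours, and in A498 at 6336 to 9007 and 6211 to 7133. The groups overlapped in every arm, and the 95% intervals ran from -0.34 to 0.07, from -0.33 to 0.11 and from -0.06 to 0.38. KEAP1, which marks NRF2 for destruction, had signals of 766 to 930.4 in sorafenib-resistant and 692 to 849.6 in untreated 786-O tumours, with a difference of 0.13 ± 0.10. Its differences of -0.15 ± 0.10 in the sunitinib arm and -0.08 ± 0.10 in A498 were not called either.

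Between the lines KEAP1 was higher in A498. Its signals were 1253 to 1890.03 in untreated A498 and 844 to 1122 in untreated 786-O tumours, which do not overlap, as in 8 of the 10 genes and 47.4% of all genes between these groups, a difference of 0.64 ± 0.10 (adjusted p = 6.5e-06). NFE2L2 had signals of 6211 to 7133 against 5302 to 6448, which overlap, and a difference of 0.20 ± 0.11 (adjusted p = 0.113). Against the untreated 786-O tumours of the sorafenib arm the NFE2L2 difference was 0.36 (adjusted p = 0.0052), so that its call depends on the arm. A dimmer NFE2L2 probe set, 1567013_at, was called higher in A498 by 1.08 ± 0.35 (adjusted p = 0.0122).

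Both subunits of the first enzyme of glutathione synthesis were called lower in sorafenib-resistant 786-O tumours by their brightest probe sets. With the mean of each gene's probe sets both calls were lost (GCLC -0.17, adjusted p = 0.359, and GCLM -0.27, adjusted p = 0.177). GCLC is the catalytic subunit of glutamate-cysteine ligase, the enzyme that sets the rate of the pathway. Its signals were 753, 783, 749, 781 and 768 in the sorafenib-resistant 786-O tumours, against 928, 996, 1019, 983 and 959 in the untreated ones. All 5 resistant tumours lay below all 5 untreated ones and within a narrow range. The difference was -0.34 ± 0.08, or 1.27-fold lower (adjusted p = 0.0068). With sunitinib the signals were 763, 657, 662 and 537 in resistant tumours, against 961, 879.7, 916, 1006 and 799 in untreated ones. Again the groups did not overlap, and the difference was -0.48 ± 0.09, or 1.39-fold lower (adjusted p = 0.0035). In a fit of the 9 arrays of this comparison alone the sunitinib call was lost (adjusted p = 0.0772).

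In A498 the GCLC signals were 1818, 1465, 1695, 1639.8 and 1415 in sorafenib-resistant tumours, against 1833, 1724, 1981 and 1934 in untreated ones. These overlapped, with a difference of -0.22 ± 0.09 that did not pass the test (adjusted p = 0.152). The fall of GCLC in 786-O rests on 1 probe set, 202923_s_at. The other one past the filter, 202922_at, differed by -0.26 ± 0.14 with sorafenib and -0.21 ± 0.15 with sunitinib, neither of them called, and centring the arrays on their medians also ended the sorafenib call (-0.25, adjusted p = 0.0856). Counts of groups without overlap were 3 of 10 genes in the sorafenib arm (NQO1, GCLC and GCLM) against 12.5% of all genes, 1 of 10 in the sunitinib arm (GCLC) against 8.46%, and 0 of 10 in A498 against 9.14%.

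GCLM is the modifier subunit of the same ligase, which raises its activity. Its signals were 2569.8, 1932, 1983, 1571 and 2063 in sorafenib-resistant 786-O tumours, against 3356, 3190.5, 3206, 2955 and 2680.3 in untreated ones. The highest resistant tumour lay just below the lowest untreated one. The difference was -0.61 ± 0.14, or 1.53-fold lower (adjusted p = 0.0035). With sunitinib the groups overlapped, at 2692, 2002, 1940.01 and 2071 in resistant tumours and 2189, 2262, 2959.8, 2624 and 3039.8 in untreated ones, a difference of -0.26 ± 0.15 that was not called. In A498 the difference had the opposite sign and did not pass the test, 0.29 ± 0.15 (adjusted p = 0.271). The A498 signals were 3466, 2936, 3884, 3773 and 3357 in resistant and 2245, 2933, 2540.4 and 3865 in untreated tumours, which overlap.

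The A498 difference of GCLM, a positive one, lay above the negative 786-O difference under sorafenib by 0.90 ± 0.20 (adjusted p = 0.0112), in a comparison of differences that called 5.19% of all genes, 3.02% higher and 2.17% lower. This call was lost when the mean of the gene's probe sets was taken (0.61, adjusted p = 0.0548) and when arrays were centred on the median (0.72, adjusted p = 0.0617). Counted over all 17 tested probe sets of the 10 genes, 6 were called lower with sorafenib in 786-O (12% of all 26924 probe sets called), 2 lower with sunitinib (3.39%), 0 in A498 (4.41%), 14 higher in untreated A498 (52.9%), 0 for sorafenib against sunitinib in 786-O (0.747%) and 3 higher for A498 against 786-O (3.28%). The 3 probe sets of GCLM disagreed. With sorafenib in 786-O, 234986_at and 236140_at differed by -0.08 ± 0.12 and -0.10 ± 0.19 and were not called. With sunitinib 234986_at was called lower, at 584, 727, 653 and 705 in resistant tumours against 974, 929, 833, 1122 and 1039 in untreated ones (-0.54 ± 0.13, adjusted p = 0.0229). All 3 probe sets were on the positive side in A498, where 234986_at came nearest to the threshold (0.44 ± 0.13, adjusted p = 0.0554). Between the untreated lines, GCLM was not called by its brightest probe set (0.13 ± 0.15, 95% interval -0.18 to 0.43). It was called higher in A498 by 236140_at (1.21 ± 0.20) and by the average of its probe sets (0.53, adjusted p = 0.0013). GCLC was called higher there, at 1724 to 1981 in A498 and 799 to 1006 in 786-O tumours (1.02 ± 0.09, or 2.03-fold).

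**Figure D3:**
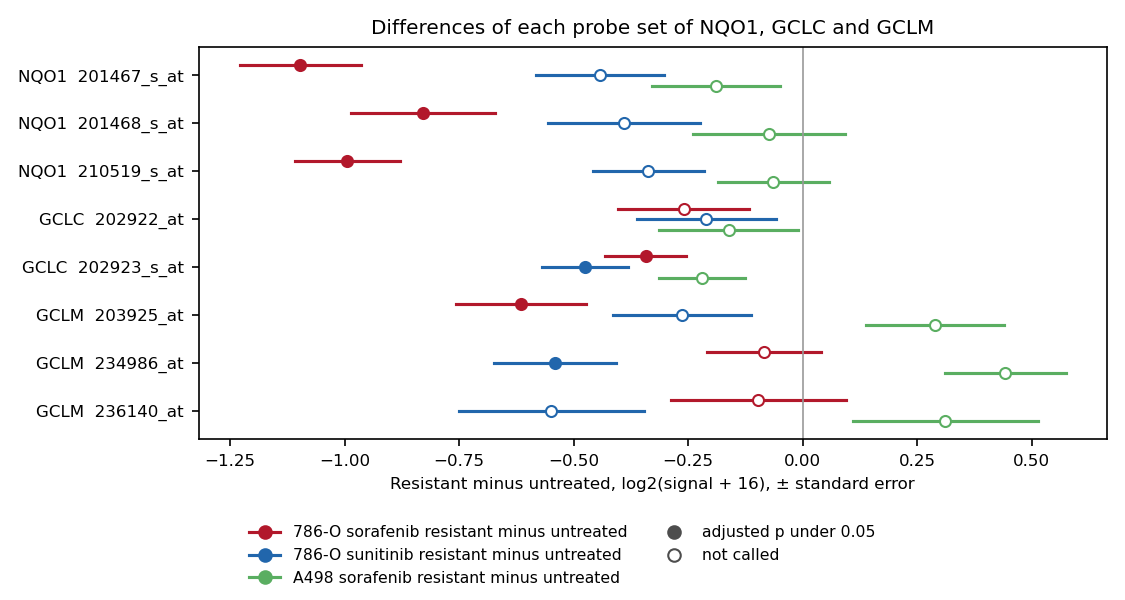
Resistant minus untreated difference on the log2(signal + 16) scale (horizontal axis, bars are standard errors) of each probe set of NQO1, GCLC and GCLM that passed the filter, in 3 arms, filled where the adjusted p over 26924 probe sets was under 0.05. The 3 NQO1 probe sets lie between -1.10 and -0.83 with sorafenib in 786-O, while for GCLM only 203925_at was called there and only 234986_at with sunitinib.

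NQO1 was lower in every sorafenib-resistant 786-O tumour than in any untreated one. It encodes NAD(P)H quinone dehydrogenase, which reduces quinones in a way that avoids radicals and is widely used as a readout of NRF2. Its signals were 2123, 1683, 1570.1, 1640.1 and 1468 in sorafenib-resistant 786-O tumours, against 3242, 3233, 3120.3, 3530.3 and 3756 in untreated ones. The highest resistant tumour lay well below the lowest untreated one, and within each group the tumours were close together. The difference was -0.99 ± 0.11, or 1.99-fold lower (adjusted p = 1.0e-06), and all 3 probe sets of NQO1 were called lower, from -0.83 ± 0.16 to -1.10 ± 0.13.

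With sunitinib NQO1 had signals of 3034, 1837, 2034 and 2558 in resistant tumours, against 2907, 2939.9, 3199.6, 3101 and 2572 in untreated ones. One resistant tumour lay among the untreated ones, and the difference of -0.34 ± 0.12 was not called (adjusted p = 0.104). It was called when that tumour, replicate 1, was left out (-0.47, adjusted p = 0.0179), and against the untreated 786-O tumours of both arms (-0.44, adjusted p = 0.0083). In probe set 201467_s_at the sunitinib groups did not overlap, at 534 to 889.4 in resistant and 914 to 1084 in untreated tumours, and the test was not passed (-0.44 ± 0.14, adjusted p = 0.0789). The sorafenib fall was larger than the sunitinib difference, with a difference of differences of -0.66 ± 0.16 (adjusted p = 0.0485), where 0.949% of all genes were called. This passed the threshold narrowly: leaving out single tumours gave -0.77 to -0.53 with adjusted p from 0.0175 to 0.116, and the call was kept in only 4 of 19 cases.

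In A498 the NQO1 signals were 14131.7, 15072, 15038, 13958 and 12952 in sorafenib-resistant tumours, against 14864, 15965, 13760.5 and 14911 in untreated ones. The groups overlapped throughout. The difference was -0.06 ± 0.12, with a 95% interval from -0.31 to 0.18, and it differed from the 786-O difference by 0.93 ± 0.16 (adjusted p = 0.0014). In untreated tumours NQO1 was 5.04-fold higher in A498 than in 786-O (2.33 ± 0.12, adjusted p = 1.4e-14), without overlap. The NQO1 group means were 14230.5 ± 877 in sorafenib-resistant and 14875 ± 900.5 in untreated A498 tumours, and 2366 ± 539.7 in sunitinib-resistant and 2944 ± 239.7 in untreated 786-O tumours of that arm (SD, n = 4 or 5). They were 1697 ± 252 in sorafenib-resistant and 3376 ± 261 in untreated 786-O tumours of the sorafenib arm (SD, n = 5 each). Both A498 groups thus stood above all 786-O groups, and the sorafenib-resistant 786-O group stood lowest.

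HMOX1 had the largest of the 4 called falls in sorafenib-resistant 786-O tumours. It encodes the inducible haem oxygenase, which splits haem into biliverdin, iron and carbon monoxide, and is abundant in macrophages that clear red blood cells as well as in stressed tumour cells. Its signals were 3218, 851, 469, 460.1 and 438 in sorafenib-resistant 786-O tumours, against 5526, 2795, 1959, 1338 and 2546 in untreated ones. In 4 resistant tumours the signal lay below all untreated tumours, and replicate 1 lay among the untreated ones. The difference was -1.70 ± 0.40, or 3.25-fold lower (adjusted p = 0.00495). Without resistant replicate 1 it was -2.21, and over all left-out tumours it ran from -2.21 to -1.42 with adjusted p up to 0.0202. In a fit of the 10 arrays of this comparison alone the call was lost (adjusted p = 0.0735).

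With sunitinib HMOX1 had signals of 1768, 1172, 1859.5 and 1691 in resistant tumours, against 1884, 2698, 1666, 2029.6 and 978 in untreated ones, a difference of -0.14 ± 0.43. In A498 it had 8348, 7895, 9003, 9969 and 10423 in resistant tumours, against 11949, 8331, 6752 and 10913 in untreated ones, a difference of -0.03 ± 0.43. Both pairs of groups overlapped, and both 95% intervals, -1.02 to 0.75 and -0.91 to 0.86, are wide. The sorafenib and sunitinib differences in 786-O were not shown to differ (-1.56 ± 0.59, adjusted p = 0.214), nor were the A498 and 786-O differences (1.67 ± 0.59, adjusted p = 0.0982). Without sorafenib-resistant replicate 1 both were called (-2.08, adjusted p = 0.0203, and 2.18, adjusted p = 0.0048). Between untreated lines HMOX1 was 5.22-fold higher in A498 (2.38 ± 0.43, adjusted p = 3.5e-05), without overlap.

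Fibroblast and pericyte genes moved with the sorafenib comparison in 786-O. Of 12 renal carcinoma and tubule genes tested there, 3 were called lower and 1 higher, with a median of 0.10. Of all genes 9.18% were called lower and 5.97% higher. Few markers of the remaining cell types were called. The summed signal of 12 fibroblast and pericyte genes was 3111 to 5275 in resistant and 7806 to 11235 in untreated tumours. Of the 10 that passed the filter 5 fell, against 9.18% of all genes called lower. Among the 5 were the collagens COL3A1 (-1.93 ± 0.30) and COL1A2 (-1.83 ± 0.27). The 15 measured macrophage genes summed to 705 to 939 and 792 to 1310. Of 6 tested, AIF1 alone was called, and was lower (-2.33 ± 0.67, with a resistant mean of 48.5 below the filter limit). The other 5 were not called, and the median of the 6 was -0.02. Of 3 endothelial genes tested TIE1 was called lower (-1.70 ± 0.40, with a resistant mean of 35.6 below the limit), and of 3 red blood cell genes 0 were called. Their part in the falls of NQO1, HMOX1, GCLC and GCLM was not tested, and in bulk tumours fewer cells of a type and less RNA per cell cannot be told apart. Nor can RNA of host cells be told apart from RNA of the carcinoma cells on these probes. With sunitinib the fibroblast and pericyte genes summed to 3893 to 8361 in resistant and 4579 to 8973 in untreated tumours. In A498 they summed to 10904 to 25002 and 7399 to 16718, most of it COL1A1 (group means of 15371 and 10028). Skeletal muscle genes, of which 5 were tested, gave 1 fall in the sorafenib arm (DES, -0.84 ± 0.27, with a resistant mean of 66.9 below the limit), and 2 adipose and skin genes gave 0 calls.

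TXNRD1 and SRXN1 were not called in any resistance comparison. TXNRD1, the cytosolic thioredoxin reductase that passes electrons from NADPH to thioredoxin, had signals of 2897 to 3353 in sorafenib-resistant and 2852 to 3459 in untreated 786-O tumours (-0.03 ± 0.10). With sunitinib it had 3099 to 3308 and 3117 to 3848 (-0.14 ± 0.10), and in A498 10252 to 13481 and 8993 to 13031 (0.19 ± 0.10). Every pair of groups overlapped. SRXN1, sulfiredoxin, repairs overoxidised peroxiredoxins. Its signals were 719.5 to 973 in sorafenib-resistant and 635 to 1038 in untreated 786-O tumours (0.04 ± 0.14), 801 to 1279 and 624 to 972 with sunitinib (0.38 ± 0.15, adjusted p = 0.142), and 2406 to 2970.3 and 2072 to 2591 in A498 (0.30 ± 0.15, adjusted p = 0.253). In these last arms the resistant mean was above the untreated one without passing the test.

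Between untreated lines TXNRD1 and SRXN1 were both higher in A498 without overlap. TXNRD1 had signals of 8993 to 13031 in A498 and 3117 to 3848 in 786-O tumours, 3.00-fold higher (1.59 ± 0.10, adjusted p = 1.3e-12). SRXN1 had 2072 to 2591 and 624 to 972, 2.94-fold higher (1.55 ± 0.15, adjusted p = 1.7e-09).

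Both glutathione peroxidases were called between the lines and in no resistance comparison. GPX3, the secreted peroxidase that kidney tubules release into plasma, had signals of 8911 to 23406 in the 9 A498 tumours and 27.7 to 187 in the 19 786-O tumours. Untreated A498 exceeded untreated 786-O by 7.80 ± 0.27 (adjusted p = 6.6e-18), and its second probe set, 214091_s_at, by 7.20 ± 0.24. As the 786-O mean of this arm lay below the filter limit, the size of this difference is uncertain. In A498 the GPX3 mean was 15586 ± 3085 in resistant and 16913 ± 6495 in untreated tumours (SD, n = 5 and n = 4), a difference of -0.05 ± 0.27.

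In 786-O the GPX3 differences were -0.36 ± 0.25 with sorafenib and 0.37 ± 0.27 with sunitinib, at signals near or below the limit. GPX2, a peroxidase best known from the gut lining, was dim in both lines, at 115 to 672 in A498 and 6.55 to 117 in 786-O tumours. The untreated difference was 2.21 ± 0.54 (adjusted p = 0.0010), of uncertain size because the 786-O mean of 55.6 lay below the limit, and the values were 223 to 359 in A498 and 21.7 to 111 in 786-O. None of its resistance comparisons passed the test. They gave -0.82 ± 0.51 for sorafenib and -0.54 ± 0.54 for sunitinib in 786-O and -0.24 ± 0.54 in A498, with intervals that reach to both sides of 0.

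The other genes of the pathway were taken from lists made for this comparison. Among 12 genes of NRF2 control and its partners, 3 rose and 1 fell in sorafenib-resistant 786-O tumours. Of all genes 5.97% were called higher there and 9.18% lower. The list median was 0.02, against -0.05 over all genes. The small MAF proteins MAFF (2.49 ± 0.26) and MAFG (0.72 ± 0.11), partners of NRF2, were higher, as was BACH1 (0.77 ± 0.12), a repressor that binds the same elements. BACH1 was also higher with sunitinib (0.55 ± 0.13, adjusted p = 0.0124), the 1 call of that list there, and 0 of 12 were called in A498. Of all genes 5.06% were called with sunitinib and 6.34% in A498. The MAFF rise was larger with sorafenib than with sunitinib in 786-O (1.61 ± 0.37, adjusted p = 0.0356) and larger in 786-O than in A498 (difference A498 minus 786-O -2.13 ± 0.37, adjusted p = 0.0014). Between untreated lines 4 of the 12 were higher and 6 lower in A498 (58% of all genes were called), among them MAFF (1.20 ± 0.27), SESN2 (-0.79 ± 0.19) and the kinase GSK3B (-0.74 ± 0.13).

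Of 13 tested genes listed as NRF2-induced detoxification, 9 fell and 0 rose in sorafenib-resistant 786-O tumours, against 9.18% of all genes called lower. Their median was -0.69, against -0.05 over all genes. With sunitinib 5 fell and 0 rose, with a median of -0.30, against 2.84% called lower and -0.01. In A498 only CBR1, a carbonyl reductase, fell (-0.50 ± 0.12), with a list median of -0.10, against 3.4% called lower and 0.03. The aldo-keto reductases AKR1C3 (-2.29 ± 0.26), AKR1C2 (-1.86 ± 0.20) and AKR1C1 (-1.56 ± 0.17) led in the sorafenib arm. Their probes can bind near-identical paralogs, so the members of this family are not independent. In 6 of the 13, against 3.02% of all genes, the A498 difference was called above the 786-O difference, by 2.26 ± 0.37 for AKR1C3, 1.65 ± 0.30 for AKR1C2 and 1.46 ± 0.25 for PIR, a nuclear protein known as an NRF2 target. In untreated tumours 9 of 13 were higher in A498 and 0 lower (27.3% and 30.6% of all genes), with AKR1B10 (6.76 ± 0.23), AKR1C2 (4.66 ± 0.22) and AKR1C1 (4.30 ± 0.18) in front. This list includes genes already known to have moved in these tumours and is no independent evidence of its direction.

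Of 19 glutathione transferases and conjugate exporters, 9 fell and 1 rose in sorafenib-resistant 786-O tumours (median -0.32), against 9.18% of all genes called lower, 5.97% higher and a median of -0.05. Among the 9 were the exporter ABCC4 (-0.83 ± 0.14) and the microsomal transferase MGST1 (-0.69 ± 0.13). The transferase GSTA1 was called lower too, but its means of 11.3 in resistant and 80.4 in untreated tumours both lay below the limit of 89.4, so no size is given. With sunitinib 0 of 19 were called (median -0.14), against 5.06% of all genes. In A498 GSTK1 fell (-0.29 ± 0.08), the 1 call of the list there, against 6.34% of all genes called. ABCC4 and MGST1 were not called in A498 (0.15 ± 0.15 and 0.08 ± 0.14), and the A498 difference was called above the 786-O difference for both (by 0.98 ± 0.21 and 0.77 ± 0.20). These were the 2 calls of the list in that comparison, where 3.02% of all genes were called higher. Between untreated lines 14 were higher and 3 lower in A498, against 27.3% and 30.6% of all genes. GSTA1, with mean signals of 6488 in A498 and 57.6 in 786-O tumours, and the exporter ABCC2, with 1396 and 8.41, were higher, while GSTT1, with 10.9 and 2227, was lower. The lower mean of each lay below the limit, so the size of these differences is uncertain. These genes are in the counts of calls, and may have passed the filter through the arrays of the brighter line. Their direction is therefore no separate evidence.

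**Figure D4:**
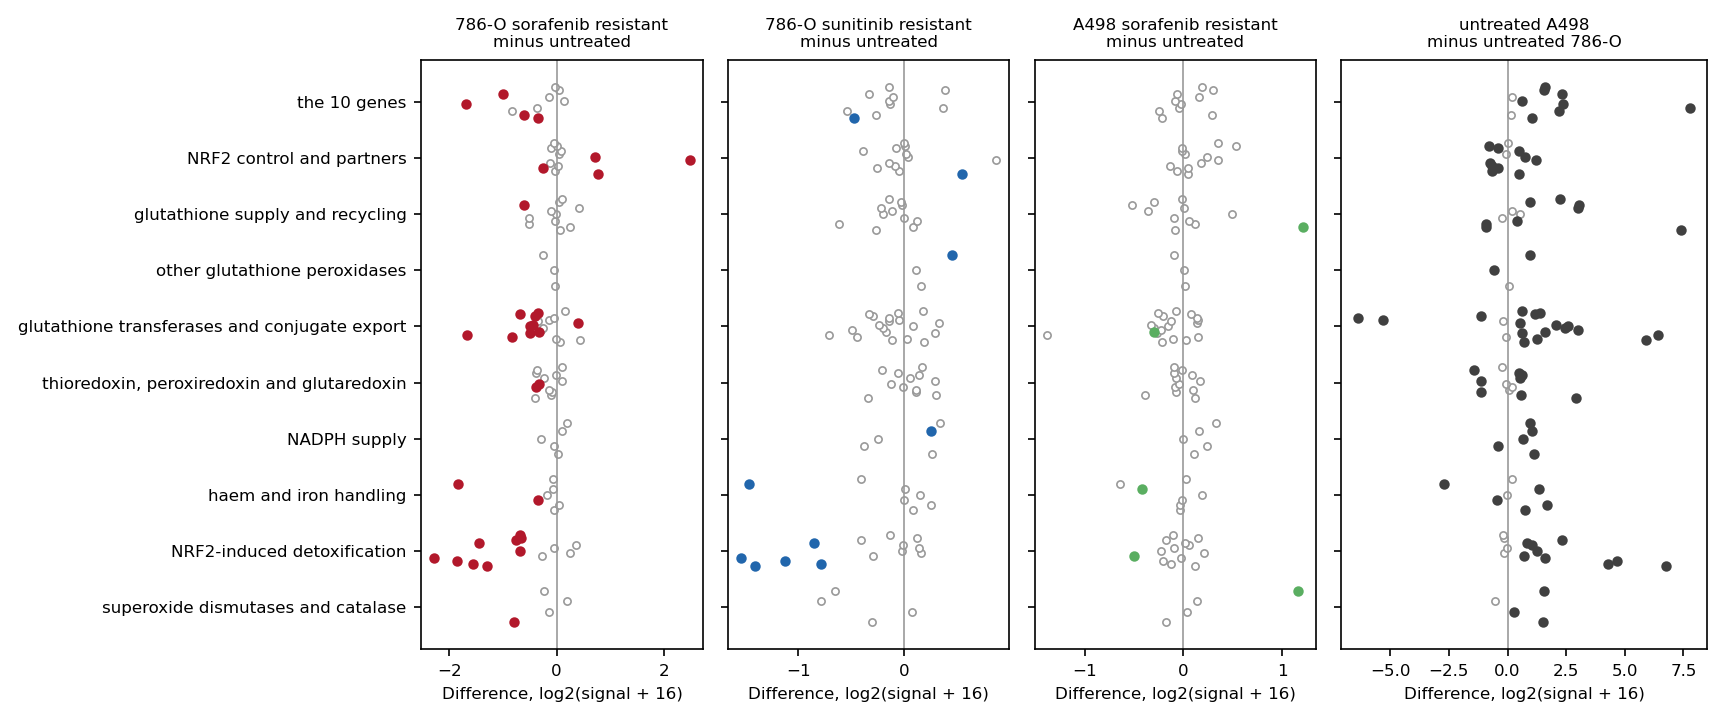
Difference on the log2(signal + 16) scale (horizontal axis, a separate range in each panel) of each tested gene of the 10 genes and of 9 pathway lists, filled where the adjusted p was under 0.05, for resistant minus untreated in 3 arms and for untreated A498 minus untreated 786-O. NRF2-induced detoxification holds 9 filled points below 0 in the first panel, 5 in the second and 1 in the third.

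Glutathione supply and recycling was little called in the resistance comparisons. Of all genes 15.2% were called with sorafenib in 786-O, 5.06% with sunitinib and 6.34% in A498. Of 11 genes, SLC1A1, a transporter of glutamate and cysteine, fell with sorafenib in 786-O (-0.60 ± 0.17), 0 were called with sunitinib, and CHAC1, which degrades glutathione, rose in A498 (1.21 ± 0.32, with an untreated mean of 60.7 below the limit). Between untreated lines 6 were higher and 2 lower in A498, against 58% of all genes called, and SLC1A1 was among the higher ones (3.07 ± 0.18). So were the ectopeptidase ANPEP, with mean signals of 6261 in A498 and 26.1 in 786-O tumours, and the 5-oxoprolinase OPLAH, with 313 and 27.0. Their 786-O means lay below the limit, so the size of both differences is uncertain. Both count among the 6, and genes this dim in 786-O may have passed the filter through the A498 arrays. Their direction is therefore no separate evidence. The cystine importer SLC7A11, chosen after its value was seen, was higher by 2.24 ± 0.20.

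Of 12 thioredoxin, peroxiredoxin and glutaredoxin genes, the peroxiredoxins PRDX2 (-0.38 ± 0.09) and PRDX3 (-0.34 ± 0.10) fell with sorafenib in 786-O, and 0 were called in the other arms. The shares of all genes called were 15.2% with sorafenib in 786-O, 5.06% with sunitinib and 6.34% in A498. In the untreated lines 5 of the 12 were higher and 3 lower in A498, a share of calls near the 58% of all genes. Among them were the glutaredoxin GLRX (2.91 ± 0.20), TXNIP (-1.43 ± 0.15) and PRDX4 (-1.14 ± 0.12). Other glutathione peroxidases gave 1 call in 3 arms, GPX8 with sunitinib (0.45 ± 0.12). In untreated A498 GPX8 was higher (0.94 ± 0.12) and GPX4, which protects membrane lipids, lower (-0.59 ± 0.11). Of 5 NADPH-supplying enzymes TALDO1 rose with sunitinib (0.25 ± 0.07). In untreated A498 4 were higher and 1 lower, against 58% of all genes called, with IDH1 (1.15 ± 0.14), TALDO1 (1.03 ± 0.07) and TKT (0.97 ± 0.13) in front.

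The haem and iron genes and the superoxide dismutases and catalase stand beside the same shares of all genes called. These were 15.2% with sorafenib in 786-O, 5.06% with sunitinib, 6.34% in A498 and 58% between the untreated lines. Among 7 haem and iron genes the iron exporter SLC40A1 fell in both 786-O arms (-1.85 ± 0.27 with sorafenib and -1.47 ± 0.28 with sunitinib). FECH, which makes haem, fell with sorafenib in 786-O (-0.36 ± 0.10). HMOX2, the constitutive haem oxygenase, fell in A498 (-0.42 ± 0.10). In untreated A498 SLC40A1 was lower (-2.72 ± 0.28, with an A498 mean of 78.7 below the limit), and the biliverdin reductase BLVRB (1.70 ± 0.13) and HMOX2 (1.34 ± 0.10) were higher. Of 4 superoxide dismutases and catalase, CAT fell with sorafenib in 786-O (-0.80 ± 0.13), SOD3 rose in A498 (1.16 ± 0.29), and in untreated A498 SOD3 (1.58 ± 0.29), CAT (1.49 ± 0.14) and SOD1 (0.26 ± 0.10) were higher.

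Across tumours the 10 genes did not vary as one unit. Deviations from the group means over 28 arrays gave Pearson correlations between -0.45 (SRXN1 and GPX3) and 0.46 (GCLM and TXNRD1, and NQO1 and HMOX1) over 45 pairs of genes, with 32 of 45 above 0. These tumours share their scaling and RNA extracts per array, so the values are a description. By the same measure the genes most like NQO1 were COMMD6 (0.87) and OST4 (0.81), and those most like HMOX1 were ANTKMT (0.74) and SELENOW (0.74). CYP39A1 (0.67) and LINC01270 (0.68) were most like GCLC, and ETFBKMT (0.74) and LMBR1 (0.73) most like GCLM. None of these is one of the 10 genes or of the pathway lists.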

How the data were processed

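RNA of 28 xenograft tumours was hybridised to Affymetrix HG-U133 Plus 2.0 arrays. The deposited values are intensity values, linear signals per probe set from 0.0875 to 64034.6, and their trimmed mean lies at 500.06 to 500.07 on every array. RMA and MAS5 are named, per the submitters' processing notes, with no version and no role. The linear scale with array medians that differ has the form of MAS5 signals. The genome build is not given in the sources used here. Of 54675 probe sets, 62 are controls, 1801 have several symbols, 11721 have none in the annotation and 41091 have 1.

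Here log2(signal + 16) was taken, each gene was given by its brightest single-symbol probe set, and 13808 of 19775 genes were kept, those that exceeded the overall median signal of 89.4 (6.72 on the log2 scale) on 4 or more arrays. One coefficient per group was fitted over 28 arrays with limma 3.58.1 in R 4.3.3, without covariates, and a second fit used 26924 probe sets. Called means an adjusted p (Benjamini-Hochberg over the fit) under 0.05. The model was tested on simulated data. For arrays the number of tumours, 4 or 5 a group, limits the precision. No 2 arrays were identical (within-group correlations 0.949 to 0.971).

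Samples were grouped by their treatment labels, and replicate numbers follow the order of accession. Resistant was compared with untreated in each arm, untreated A498 with untreated 786-O, and the differences with each other. Named were the 10 genes, the up to 3 called genes of largest difference of each pathway list per comparison, and the 2 genes most like each called gene in their deviations from the group means. Marker lists covered renal carcinoma and tubule, macrophage and myeloid, red blood cell, fibroblast and pericyte, endothelium, adipose and skin, and skeletal muscle. The genes, the pathway lists and the markers were chosen with earlier results of these data known. Promoters are from RefSeq's GRCh38.p14 table. Alternatives were other pseudocounts (1 and 64), filters, probe set rules, normalizations, array weights, a GAPDH covariate, fewer arrays, other untreated tumours and leaving out each array. Tables and plots were made in Python 3.11.15 with matplotlib 3.10.9.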

Additional observations from a re-analysis of the deposited data

Results flagged for a closer look

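Among 60 groups of values, 3 had a tumour far from the others on the log2 scale and 4 on the scale of the signals, where chance gives about 1 in 20. GPX3 had a signal of 123 in sunitinib-resistant 786-O replicate 1, above 61.5 to 65.9 in the other sunitinib-resistant tumours. TXNRD1 had 3308 in the same tumour, above 3099 to 3128. SRXN1 had 2591 in untreated A498 replicate 4, above 2072 to 2089. HMOX1 had 3218 in sorafenib-resistant 786-O replicate 1, above 438 to 851, which stood apart on the scale of the signals alone.

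In 3 cases the resistant minus untreated difference of a gene was called unlike between arms, by a test of the difference itself. NQO1 fell more with sorafenib than with sunitinib in 786-O (difference of differences -0.66, adjusted p = 0.0485). That call was kept in only 4 of 19 cases when single tumours were left out. The NQO1 difference under sorafenib in A498 lay above that in 786-O by 0.93 (adjusted p = 0.0014), and the GCLM difference by 0.90 (adjusted p = 0.0112). The GCLM call was lost with the mean of its probe sets (adjusted p = 0.0548) and with median centring (adjusted p = 0.0617). In all 3 cases the 786-O sorafenib arm has another leading number in its titles than the arm set against it.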

How the results depend on the processing

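Of 1618 differences of single genes under alternatives, 1539 kept their direction and their side of the threshold, 32 lost the call, 7 gained it and 40 changed sign, all 40 uncalled in both settings. No paired analysis was possible because replicate numbers only follow the order of accession, and the leading number that titles share marks whole groups and pairs no single tumours. GPX2 and GPX3 lie near or below the signal limit of 89.4 in 786-O, which limits what their differences show. The causes of the changes below were not tested, unless fewer arrays or probe sets were used.

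Leaving out the probe sets open to cross-hybridisation removed all 3 NQO1 probe sets. Members called were then 2 in the 786-O sorafenib comparison, 0 in the sunitinib one, 0 for sorafenib against sunitinib and 1 for A498 against 786-O, with 476 genes called in the last (716 in the main setting), and GCLC was -0.050 for sorafenib against sunitinib. Averaging all probe sets of each gene gave 2 calls with sorafenib in 786-O, 0 for sorafenib against sunitinib and 1 for A498 against 786-O. TXNRD1 was then 0.19 with sunitinib, -0.086 in A498 and -0.46 for sorafenib against sunitinib, GCLM 0.19 for that contrast, and GCLC -0.058 for A498 against 786-O. Median centring gave 0 calls for sorafenib against sunitinib and 1 for A498 against 786-O, with TXNRD1 at 0.059 with sorafenib in 786-O, NFE2L2 at 0.0065 for sorafenib against sunitinib and GCLC at -0.061 for A498 against 786-O. NFE2L2 was 0.038 for sorafenib against sunitinib after quantile normalization. Array weights gave 0 calls for that contrast, NFE2L2 at 0.0091, TXNRD1 at 0.00064 with sorafenib in 786-O and 1316 genes called in A498 (875 in the main setting).

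A pseudocount of 1, no filter (73 genes called, against 131) and the GAPDH covariate (HMOX1 at 0.0077 in A498) each gave 0 calls for sorafenib against sunitinib. So did fitting only the arrays of a comparison, which gave 0 calls and 259 genes with sunitinib (698 in the main setting) and 185 genes in A498. Without the 2 arrays of highest 3-prime minus 5-prime ACTB difference the counts were 1233 genes with sorafenib in 786-O (2092 in the main setting), 51 for sorafenib against sunitinib, with 0 of the 10 genes, and 458 for A498 against 786-O, with TXNRD1 at 0.014 with sorafenib in 786-O and NFE2L2 at 0.080 for sorafenib against sunitinib. With the untreated 786-O tumours of both arms 2 of the 10 genes and 1400 genes were called with sunitinib, and GPX3 was 0.055 with sorafenib and -0.047 with sunitinib. Against the sorafenib-arm tumours GCLM was -0.11 between the lines.

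Leaving out single tumours kept 4 calls with sorafenib in 786-O in all 10 cases. It gave 0 to 2 calls and 64 to 171 genes for sorafenib against sunitinib, 1 to 2 calls and 313 to 659 genes with sunitinib, and 467 to 1020.0 genes in A498. In the same cases TXNRD1 ran from -0.065 to 0.0039 and SRXN1 from -0.058 to 0.12 with sorafenib in 786-O, and HMOX1 from -0.35 to 0.016 with sunitinib. In A498 HMOX1 ran from -0.18 to 0.095, KEAP1 from -0.16 to 0.036 and GPX3 from -0.32 to 0.14. For sorafenib against sunitinib NFE2L2 ran from -0.072 to 0.044 and GPX2 from -0.67 to 0.25, and between the lines GCLM ran from -0.019 to 0.24.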

Other observations

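The untreated 786-O tumours of the sorafenib and the sunitinib arm form no comparison of the design. In that order, mean signals were 5214 ± 520.2 and 5816 ± 453 for NFE2L2, 977 ± 34.8 and 912 ± 78.9 for GCLC, and 2833 ± 1607 and 1851 ± 622 for HMOX1 (SD, n = 5 each). For GPX3 they were 116 ± 44.5 and 58.2 ± 21.9. Of the 21 probe sets of the group, 4 lay below the filter and were in no test: 1567015_at of NFE2L2, 1555330_at of GCLC, 1561080_at of TXNRD1 and 239595_at of GPX2, with mean signals of 14.7, 39.3, 19.8 and 30.9 over all arrays.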
